A study of Mus musculus with 24 samples.

Results

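Endothelial cells of high endothelial venules (HEVs), sorted from the Peyer's patches of mice, were compared between animals that drank polyethylene glycol (PEG) and unperturbed animals. The comparison takes the 6 libraries that the labels call HEV and PEG and the 4 called HEV and control, which are 10 of the 24 RNA sequencing libraries of the series. The other 14 libraries are of fibroblastic reticular cells (FRCs), the fibroblasts of the same tissue. PEG is an osmotic agent. It was taken freely in the drinking water at 10% (w/v) for 3 days, with the stated aim of diminishing fluid flow. Per the labels, 1000 cells were sorted for each mouse, so each library was taken as 1 mouse. Strain, genotype, sex, age and the sorting markers are not given in the sources used here. No measure of fluid flow was analysed here, so what comes from altered flow cannot be told apart from anything else PEG does.

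HEVs are the vessels through which lymphocytes leave the blood and enter lymph nodes and Peyer's patches. Their tall endothelial cells display addressins, which lymphocytes bind while rolling: the product of Madcam1 binds the gut-homing integrin of lymphocytes, and sialomucins such as the products of Glycam1 and Cd34 carry sulfated and fucosylated sugars that bind L-selectin. Rolling cells are then arrested by chemokines and by adhesion receptors such as Icam1. Endothelial cells also sense the flow of blood along their surface, for which Klf2 is a widely used marker gene.

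The HEV libraries held from 3115003 reads assigned to genes, in PEG library 16, to 19948766. The next lowest held 12461493. Libraries are named by group and by their number in the labels. From recurring index pairs, libraries 1 to 8, 9 to 16 and 17 to 24 were taken as 3 sequencing pools, which the labels do not state. Libraries 1 to 9 stood apart from libraries 10 to 24. On the first principal component (24.7% of the variance) PEG 7, control 8 and control 9 lay at -84.9, -89.7 and -69.7, and the other 7 HEV libraries between -5 and 65.2. Control 9 is the only library of the numbers 1 to 9 in its pool, beside PEG 14, PEG 15 and PEG 16. The labelled cell type was checked with Madcam1, Glycam1 and Pecam1, which were present in every library: the lowest values were 5628 CPM (the count per 1000000 reads of the library) for Madcam1, 3332 for Glycam1 and 451 for Pecam1.

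The question of the comparison is what differs in these venules under PEG. No gene passed the test: of 14308 genes tested, 0 (0%) had an adjusted p under 0.05 (edgeR quasi-likelihood test with the pool as covariate, Benjamini-Hochberg adjustment), and the smallest adjusted p was 0.64. Before adjustment, 424 genes with p under 0.05 were higher in PEG (2.96%) and 462 lower (3.23%), together 886, where evenly spread p-values would give 715.4. In the same libraries DESeq2 called 116 genes, 20 of them named below, and limma-voom 0. edgeR without the filter on low counts called 141. All 6 PEG libraries lay above all 4 controls in 77 genes (0.538%) and below them in 57 (0.398%). Values below describe named genes and carry no call. A log2 fold change is positive where PEG was higher and is given with its standard error (SE), levels are CPM as mean ± SD, and p is unadjusted unless said otherwise. In bulk samples such as these, fewer cells of a type and less RNA per cell cannot be told apart. In the HEV comparison the pool stayed in the model for libraries 10 to 24 and without control 9. PEG 14, PEG 15 and PEG 16 then had no control in their pool and did not inform the log2 fold change. Libraries 10 to 24 thus compare PEG 22 and PEG 23 with controls 17 and 24. Without control 9, PEG 7 against control 8 is added. PEG 7 and control 8 are the only HEV libraries of their pool, so leaving out either takes the other out of the value.

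How small a change these libraries could show depends on the level of the gene. The 95% interval of the log2 fold change reached a median of 1.38 to either side over all genes and 0.59 over the 2062 genes with a mean of at least 100 CPM. It lay within 1 to either side, a 2-fold change, for 2469 genes (17.3%), and for 1403 (68.0%) of those 2062. On simulated counts of these libraries 2.0% of 2-fold and 35.0% of 4-fold changes were recovered at an adjusted p under 0.05. The changes were placed in genes above 5 CPM, and no differences between pools were simulated.

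**Figure D1:**
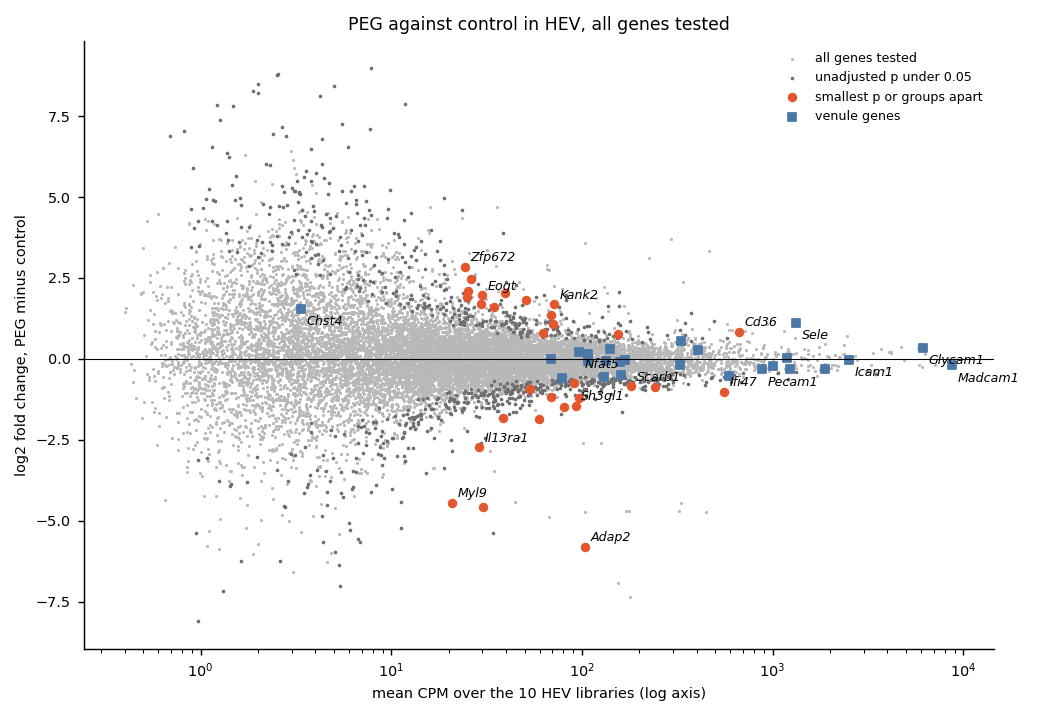
Log2 fold change (PEG minus control) against the mean CPM over the 10 HEV libraries (log axis) for the 14308 genes tested. Grey points are all genes, darker points those with an unadjusted p under 0.05, orange circles the genes of smallest p or with groups that do not overlap, and blue squares the venule genes. The spread narrows with the level, and Madcam1 and Glycam1, at the right, lie at -0.20 and 0.35.

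The genes that define the venules were abundant in both groups. Per transcript length, on the RPKM values of the authors (reads per kilobase of transcript, scaled to the depth of the library and by a size factor), Glycam1 was the most abundant gene of the HEV libraries, with 7707 ± 2304 (SD, n = 6) under PEG against 6023 ± 2561 (n = 4) in the controls. Madcam1 had rank 4, at 3994 ± 1115 and 4544 ± 1088. Pecam1, an adhesion protein of endothelial junctions, was at 139 ± 53.9 and 172 ± 103.

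The list of addressins and sialomucins had 4 of 7 tested members positive and a median log2 fold change of 0.29, and the median was -0.34 in libraries 10 to 24. In CPM, Madcam1 ran from 5628 over a median of 7726 to 11929 in PEG and was at 11371, 7639, 10966 and 7495 in controls 8, 9, 17 and 24. The groups overlapped, and the log2 fold change was -0.20 ± 0.20 (95% interval -0.65 to 0.24). In this fit the interval leaves out a 2-fold change in either direction. The Madcam1 value ran from -0.35 to -0.02 with single libraries left out and was -0.56 in libraries 10 to 24. Glycam1 ran from 4606 over 6245 to 10614 in PEG and was at 4295, 3332, 4592 and 8510 in the controls. All 6 PEG libraries lay above the control median, but control 24 was above every PEG library except PEG 14. The log2 fold change was 0.35 ± 0.30 (-0.32 to 1.02), and it was -0.0032 without control 9. Pecam1 was at -0.33 ± 0.28, and at 0.27 without control 9, which with PEG 7 and control 8 held its 3 highest levels. Cd34, a sialomucin of endothelium, was at 504.1 ± 175 in PEG and 718 ± 227 in control (-0.54 ± 0.21, p 0.027). The 3 libraries with the most Cd34 were control 8, control 9 and PEG 7, and without control 9 its value was -0.30. With the contrast of libraries 1 to 9 and 10 to 24 in place of the pool its value was -0.27 (p 0.16).

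**Figure D2:**
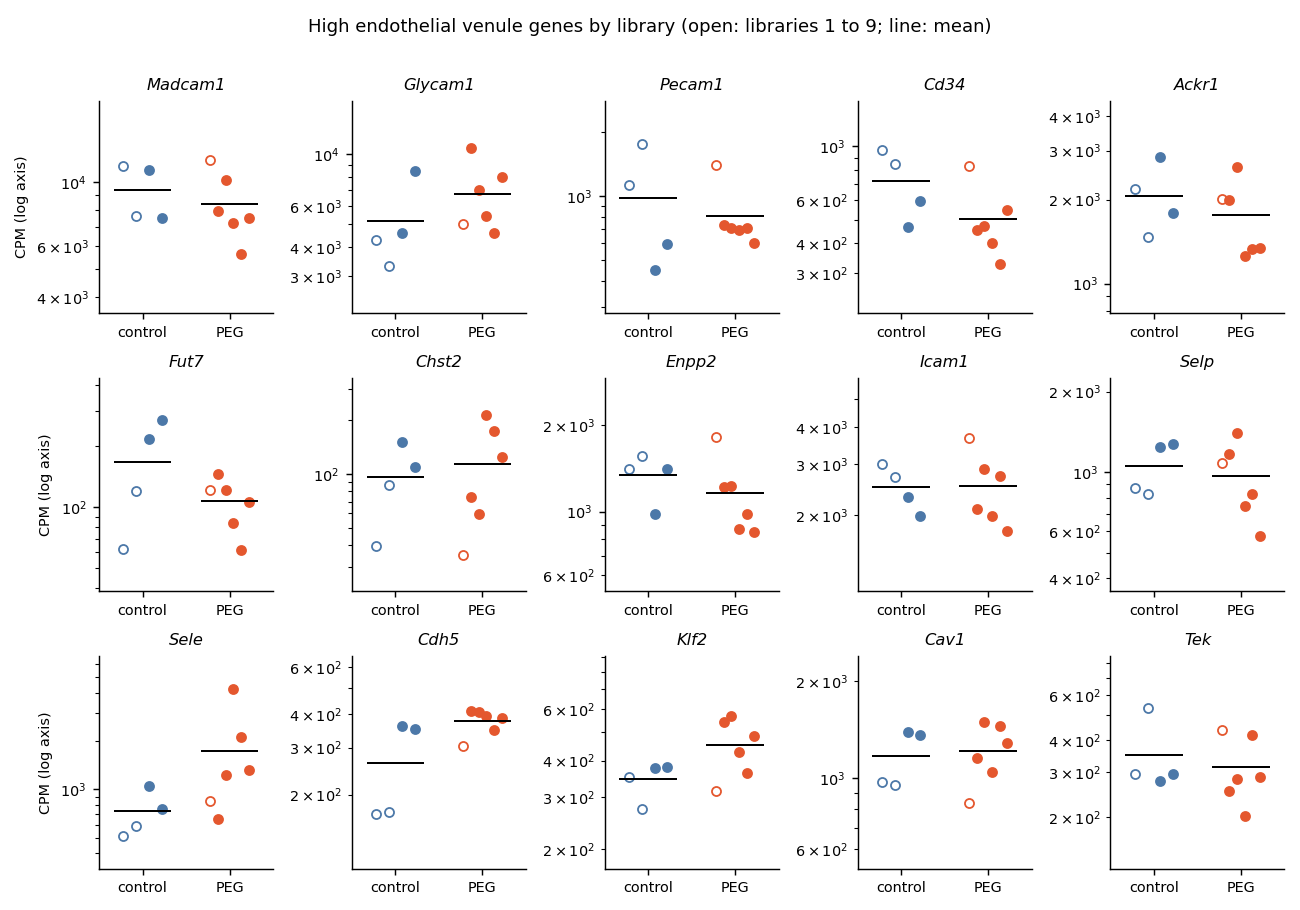
CPM (log axis) of 15 venule and endothelial genes in each of the 4 control and 6 PEG libraries. Open circles are libraries 1 to 9, filled circles libraries 10 to 24, and lines the group means. The groups overlap in every panel. In several panels, among them Pecam1, Cd34, Cdh5, Fut7, Selp and Cav1, the open circles of the controls stand apart from the filled ones.

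Enzymes that build the L-selectin ligand sugars gave no change past the test. In the list of glycosyltransferases and sulfotransferases, 10 of 22 members tested had a positive log2 fold change and the median was -0.04, beside 50.8% positive and a median of 0.013 over all genes tested. St3gal6, a sialyltransferase that adds the terminal sialic acid of these sugars, had the smallest p of the list. It ran from 269 over 332 to 475 CPM in PEG and was at 440, 629, 683 and 532 in controls 8, 9, 17 and 24. PEG 15, at 475, was the only PEG library above the lowest control. The log2 fold change was -0.81 ± 0.21 (p 0.0029, adjusted p 0.77), from -0.94 to -0.68 with single libraries left out, and -0.76 with libraries 1 to 9 contrasted with 10 to 24 in place of the pool. The fucosyltransferase Fut7 was at 107 ± 30.2 in PEG and 168 ± 93.8 in control (-0.54 ± 0.42), with all 6 PEG libraries below the control median. Its value was -1.01 without control 8, -0.17 without PEG 22 and -1.60 (p 0.0026) in libraries 10 to 24. The sulfotransferase Chst2 was at 0.16 ± 0.38 and the branching enzyme Gcnt1 at -0.60 ± 0.29 (p 0.066). Chst4, the sulfotransferase known for HEVs, had few reads. Its mean was 3.65 ± 3.53 CPM in PEG and 2.92 ± 3.23 in control, and the interval of its log2 fold change, -4.91 to 7.97, says nothing of its direction. Uap1, which makes the activated N-acetylglucosamine that such sugars are built from, was at 189 ± 58.1 in PEG and 323 ± 43.0 in control (-0.88 ± 0.30, p 0.013), and all 6 PEG libraries lay below all controls.

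Among 19 leukocyte adhesion receptors tested, 10 were positive and the median was 0.03. It was 0.30, with 14 positive, in the libraries of the index that all PEG libraries carry. These hold controls 8 and 24 only, and PEG 14, PEG 15 and PEG 16 have no control in their pool there. That value thus compares PEG 7 with control 8, and PEG 22 and PEG 23 with control 24. The mean log2(CPM + 1) of the list was 7.36 to 7.67 in PEG and 7.15 to 7.28 in control, and it was the only 1 of 30 lists whose level did not overlap between the groups. Its summed CPM did overlap, at 10122 to 16321 and 9826 to 11219. Icam1 lay at 2526 ± 715 CPM in PEG and 2502 ± 446 in control (-0.02 ± 0.20, interval -0.45 to 0.41), and Vcam1 at -0.08 ± 0.31. Of the selectins that endothelium displays, Selp was at -0.22 ± 0.29. Sele had the only p under 0.05 of the list (1.11 ± 0.49, p 0.042). It ran from 654 over 1270 to 4219 CPM in PEG and was at 512, 588, 1053 and 758 in the controls, so that 4 of 6 PEG libraries lay above all controls. The highest value was that of the shallow PEG library 16, without which the log2 fold change was 0.76.

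Chemokines and their decoy receptors had 8 of 20 members positive and a median of -0.16, with 5 members of p under 0.05, all at negative values, where 3.23% of all genes were lower with such a p. Ccrl2, an atypical receptor that holds chemerin on endothelium, ran from 39.6 over 60.0 to 131 CPM in PEG, against 224, 106, 137 and 85.0 in the controls (-0.97 ± 0.26, p 0.0033). Of the PEG libraries, PEG 7 alone lay above the lowest control. The interferon-induced chemokine Cxcl10 was at 1017 ± 433 in PEG and 1506 ± 527 in control (-0.63 ± 0.20, p 0.0093). PEG 7, control 8 and control 9 held 1871, 2009 and 1911 CPM and the other 7 libraries 720 to 1087. Without control 9 the value was -0.34, and with libraries 1 to 9 contrasted with 10 to 24 in place of the pool it was -0.28 (p 0.094). Ccl2, which attracts monocytes, was at -2.46 ± 1.00, and at -1.30 without control 9. Ackr4 (-2.25 ± 0.94) and Cxcl12 (-0.82 ± 0.36) complete the 5. These genes, and Cldn12, Hspa5, Fasn, Krt19, Rpl37, Alox12 and Ddit3 below, lie outside the rule for named genes and were named after their values were seen, to complete counts. The atypical receptor Ackr1, a marker of venules, was at -0.31 ± 0.29, with -0.62 without control 9, -0.07 without control 17 and -0.86 (p 0.048) in libraries 10 to 24. The chemokine Cxcl9 was at -0.02 ± 0.34.

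Endothelial identity genes were among the more precisely measured. Of 25 pan-endothelial genes tested, 18 had an interval within 1 to either side. The share was 17.3% over all genes and 68.0% over all genes with a mean of at least 100 CPM. In the pan-endothelial list 9 were positive and the median was -0.09. Tal1, a transcription factor of blood and endothelium, lay at 59.3 ± 11.6 CPM in PEG and 31.8 ± 4.95 in control (0.84 ± 0.31, p 0.021), and all 6 PEG libraries lay above all controls. Cdh5, the cadherin of endothelial junctions, ran from 305 over 390 to 413 in PEG. In controls 8 and 9 it was at 169 and 172, and in controls 17 and 24 at 360 and 353. Its log2 fold change was 0.56 ± 0.25 (p 0.042) over all libraries, and -0.02 in libraries 10 to 24. The angiopoietin receptor Tek was at -0.20 ± 0.29 (0.35 without control 9) and the VEGF receptor Kdr at -0.09 ± 0.33.

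Genes that mark vessel subtypes had 10 of 21 positive (median -0.18) and 4 with p under 0.05, beside 6.19% of all genes. Cd36, a fatty acid and thrombospondin receptor of capillaries, ran from 472 over 766 to 1354 CPM in PEG and was at 373, 432, 445 and 557 in the controls. PEG 14 alone lay below the highest control. Its log2 fold change was 0.84 ± 0.23 (p 0.0041), from 0.68 to 0.95 with single libraries left out. Aplnr, the apelin receptor of veins and capillaries, was at 207 ± 28.7 in PEG and 355 ± 126 in control (-0.85 ± 0.24, p 0.0050; -0.54 without control 9). Lyve1, a hyaluronan receptor of lymphatic vessels, was at -1.31 ± 0.43 and Gja4, a connexin of arteries, at -1.53 ± 0.62. Control 17 held Lyve1 at 15.3 CPM, and controls 8, 9 and 24 held 55.8, 71.0 and 66.4, above every PEG library. The Lyve1 value was -1.56 without control 17. It was -0.89 without control 24, where control 17 is the only control left in its pool. For Gja4, 1 control decided much of the value, which was -0.76 without control 17.

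Junction and barrier genes had 12 of 24 positive (median 0.01), with 5 of p under 0.05, beside 6.19% of all genes. Ctnnd1, which anchors cadherins, was at 91.4 ± 30.6 CPM in PEG and 51.6 ± 15.7 in control (0.81 ± 0.32), beside Cdh5 above. Ocln (2.62 ± 0.93), Marveld2 (-2.60 ± 1.09) and Cldn12 (-1.36) are tight junction genes at low levels. Ocln, which epithelia express strongly, was highest in PEG 22 and PEG 16, at 81.1 and 40.1 CPM, where epithelial RNA was also present (described below). PEG 14, PEG 16, PEG 22 and PEG 23 were the highest libraries in both Ocln and epithelial level, and control 8 and PEG 15 the lowest in both. The part of epithelial RNA in the Ocln value was not tested. Within the highest libraries the order differed: PEG 23, with the highest epithelial level, held 26.2 CPM of Ocln. PEG 14, slightly above PEG 22 in epithelial level, held 13.4. With the epithelial level in the model the log2 fold change of Ocln was 1.86 (p 0.051).

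The genes that respond to flow gave no call. A p under 0.05 was found in 2 of 24 laminar shear genes, 3 of 18 disturbed flow genes and 0 of 17 mechanosensitive genes, beside 6.19% of all genes. In the list of laminar shear genes 11 of 24 were positive and the median was -0.04, and 14 had an interval within 1 to either side. Klf2, the shear-induced transcription factor, ran from 315 over 458 to 568.2 CPM in PEG and was at 352, 274, 377 and 381 in the controls. Its log2 fold change was 0.28 ± 0.23 (interval -0.22 to 0.78), and 0.01 without control 9. Nos3, endothelial nitric oxide synthase, was at 0.30 ± 0.32, and at 0.01 without control 9. Cav1, the scaffold of caveolae, was at 1212 ± 253 in PEG and 1170 ± 242 in control (0.03 ± 0.18, interval -0.38 to 0.43). The members with p under 0.05 were Gja4 and Cyp1b1, a shear-induced cytochrome, at 48.1 ± 10.9 against 74.0 ± 18.0 (-0.67 ± 0.28, p 0.036). Of 18 genes of disturbed flow and thrombosis, 8 were positive (median -0.02), and those with p under 0.05 were Sele and Ccl2 above and Bmp4, at 107 ± 55.2 in PEG and 51.4 ± 24.2 in control (0.88 ± 0.34, p 0.024). PEG 7 and control 8 held the least Bmp4, and with libraries 1 to 9 contrasted with 10 to 24 it was at 0.40 (p 0.43). Of 17 genes of mechanosensitive channels and YAP or TAZ targets, 10 were positive (median 0.11) and none had a p under 0.05. The channel Piezo1 was at 135 ± 24.0 in PEG and 132 ± 26.7 in control (-0.08 ± 0.23, interval -0.57 to 0.41).

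PEG is an osmotic agent, and osmotic stress genes were looked at for that reason. Of 18 tested, 9 were positive, the median was 0.04 and 1 had a p under 0.05: Slc6a6, the taurine transporter, at -0.92 ± 0.41 (-0.52 without control 9). Over all genes 6.19% had such a p. Nfat5, the transcription factor of the osmotic response, ran from 50.9 over 94.4 to 177 CPM in PEG and was at 127, 96.6, 79.3 and 57.7 in the controls (0.21 ± 0.36), so the range of the controls lay within that of PEG.

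Of the growth factor lists, p was under 0.05 in 2 of 20 VEGF and angiopoietin genes (Pdgfc and Aplnr), 2 of 17 Notch genes and 3 of 21 BMP and TGF-beta genes (Bmp4, Tgfbr2 and Smad3). Over all genes the share was 6.19%. In the first list (10 positive, median 0.08) Pdgfc, a platelet-derived growth factor, ran from 0.10 over 1.05 to 4.41 CPM in PEG and was at 19.6, 39.7, 24.3 and 19.2 in controls 8, 9, 17 and 24. All PEG libraries lay below all controls, with 119 reads over 6 PEG libraries and 1625 over 4 controls. Its log2 fold change was -4.44 ± 0.86 (p 0.00028, adjusted p 0.64 with edgeR and 6.8e-05 with DESeq2), from -4.97 to -3.25 with single libraries left out. Jag1, a Notch ligand, was at 184 ± 76.0 in PEG and 102 ± 30.6 in control (0.75 ± 0.28, p 0.020), and Lfng, which modifies Notch, at -1.23 ± 0.53 (-0.64 without control 9), with a list median of -0.00 over 17 genes. In the BMP and TGF-beta list (12 of 21 positive, median 0.24) the receptor Tgfbr2 was at 192 ± 28.1 and 257 ± 23.0 (-0.45 ± 0.20, p 0.046), where no PEG library reached a control, and the signal transducer Smad3 at -1.19 ± 0.44. For the sphingosine phosphate and autotaxin axis, which keeps HEVs intact and lets lymphocytes pass, 7 of 13 were positive with a median of 0.00 and no p under 0.05. Its secreted enzyme autotaxin, Enpp2, was at 1161 ± 361 CPM in PEG and 1340 ± 247 in control (-0.30 ± 0.20).

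Lymphotoxin signals maintain HEVs. The receptor gene Ltbr was at 70.1 ± 16.6 CPM in PEG and 67.8 ± 29.7 in control (-0.00 ± 0.32), and the list of its pathway had 7 of 14 positive and a median of 0.04. The kinase Chuk of that pathway was at -1.11 ± 0.44, and at -0.23 without control 9. Canonical NF-kappaB target genes had 4 of 24 positive and a median of -0.22, from -0.28 to -0.16 with single libraries left out. Those with p under 0.05, Ccl2 and Sele, pointed in opposite directions. Type I interferon genes had 9 of 26 positive and a median of -0.27 with no p under 0.05, and the median was -0.04 in libraries 10 to 24. Genes of the interferon-gamma response and class I presentation had 14 of 30 positive, a median of -0.01 and 22 intervals within 1 to either side. Irgm1, an interferon-induced GTPase, was at -0.87 ± 0.33 (-0.56 without control 9). Ciita, the class II transactivator, was at 6.10 ± 10.2 in PEG and 0.42 ± 0.63 in control (3.60 ± 1.36), with most of its signal in PEG 22 at 26.5.

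Il13ra1 had the smallest p of all genes named here. It encodes a chain of the receptor for interleukins 4 and 13. Its level was 4.33, 11.5, 21.5, 12.5, 6.16 and 9.13 CPM in PEG 7, 14, 15, 16, 22 and 23, and 74.0, 72.4, 37.2 and 41.4 in controls 8, 9, 17 and 24. Every PEG library lay below every control. The log2 fold change was -2.73 ± 0.45 (interval -3.71 to -1.76, p 6.2e-05, edgeR adjusted p 0.64), from -2.96 to -2.36 with single libraries left out, -2.42 in libraries 10 to 24 and -2.41 with libraries 1 to 9 contrasted with 10 to 24. DESeq2 gave an adjusted p of 4.8e-06. Its partner chain Il4ra was at 142 ± 32.5 in PEG and 190 ± 46.3 in control (-0.49 ± 0.23, p 0.057). Among 24 cytokine receptors tested, 8 were positive (median -0.13), and the other member with p under 0.05 was Il27ra (-1.14 ± 0.46; -0.46 without control 9).

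**Figure D3:**
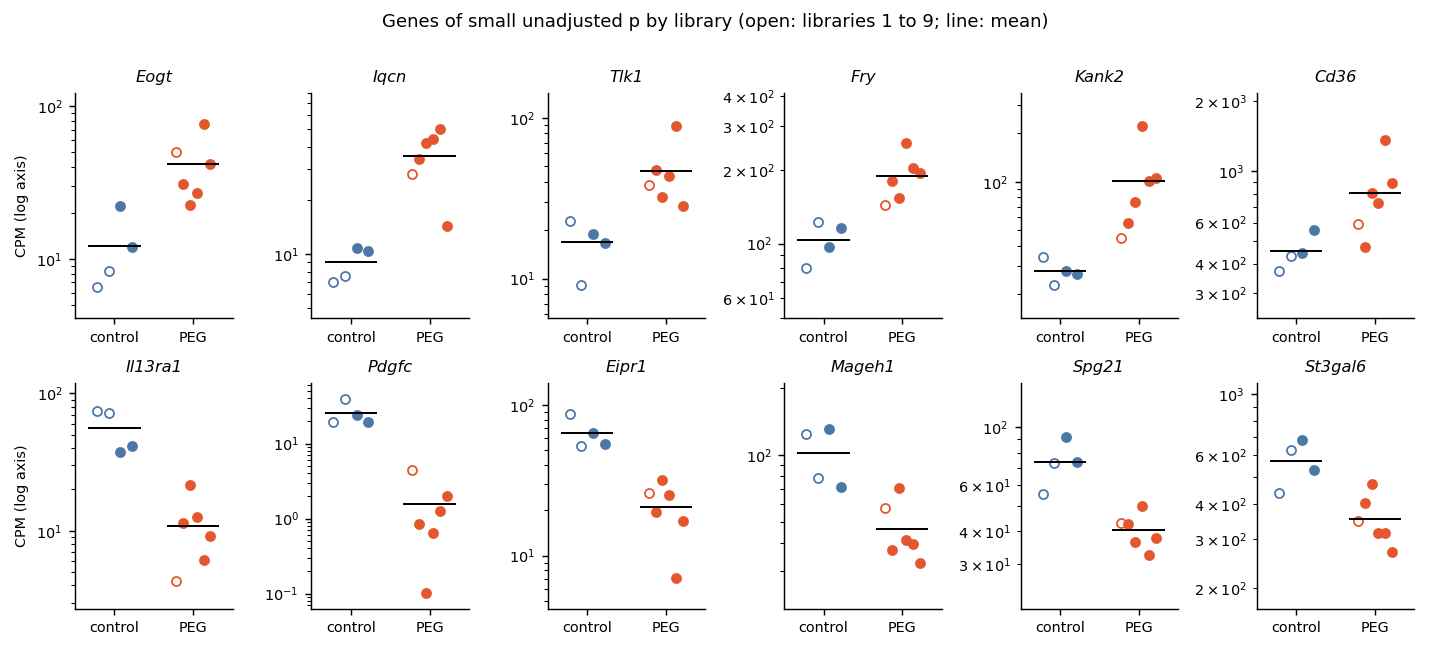
CPM (log axis) by library of 12 genes of small unadjusted p, 6 higher and 6 lower in PEG. Open circles are libraries 1 to 9, filled circles libraries 10 to 24, lines the group means. In Eogt, Iqcn, Tlk1, Fry, Kank2, Il13ra1, Pdgfc, Eipr1, Mageh1 and Spg21 all 6 PEG libraries lie on one side of all 4 controls.

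The 10 genes higher in PEG with the smallest p, among those with a mean of at least 20 CPM, came from several cell functions. Eogt, which puts N-acetylglucosamine on the extracellular domains of proteins such as Notch, ran from 22.5 over 36.4 to 76.7 CPM in PEG and was at 6.52, 8.27, 22.0 and 12.0 in the controls, so PEG 15 and control 17 were close while the groups did not overlap. Its log2 fold change was 1.96 ± 0.43 (p 0.00075). Iqcn was at 35.5 ± 13.0 against 9.00 ± 1.98 (1.90 ± 0.49). Among the others were the chromatin remodelling subunit Bicra (2.03 ± 0.53), the histone reader Phf13 (2.09 ± 0.56), the kinase Tlk1, which acts on histone chaperones (1.60 ± 0.45), and the zinc finger protein Zfp672 (2.85 ± 0.75). Ltn1, a ubiquitin ligase that clears stalled ribosomes, was at 1.70 ± 0.42. Ltbp1, which binds latent TGF-beta in matrix, was at 88.7 ± 34.9 against 38.4 ± 20.6 (1.34 ± 0.37). The small GTPase Rasd2 (2.48 ± 0.70; 1.77 without control 9) and Cd36 complete them. Genes with a mean of at least 50 CPM whose groups did not overlap included Fry, a scaffold protein, at 189 ± 40.8 against 104 ± 19.7 (0.78 ± 0.22), Kank2, which links integrin adhesions to microtubules, at 101 ± 64.8 against 27.9 ± 4.75 (1.69 ± 0.49), the actin-binding Ppp1r18 (1.09 ± 0.32) and Tsc22d2 (0.81 ± 0.26).

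Of the 10 lower genes of smallest p, several had their highest levels in PEG 7, control 8 and control 9. Sh3gl1, an endophilin of endocytosis, was at 59.3 ± 37.7 CPM against 143 ± 77.7 (-1.45 ± 0.27, p 0.00021; -1.07 without control 9). Eipr1, which works in vesicle recycling, lay at 21.2 ± 8.62 against 65.2 ± 15.5 (-1.83 ± 0.41), and no PEG library reached a control. Errfi1, a feedback inhibitor of the EGF receptor, was at 31.0 ± 20.3 against 102 ± 56.2 (-1.86 ± 0.42), the HDL receptor Scarb1 at 138 ± 49.2 against 247 ± 111 (-0.84 ± 0.20) and the interferon-induced GTPase Ifi47 at 429 ± 195 against 743 ± 208 (-1.02 ± 0.24). Adap2 was at 260, 279 and 490 CPM in PEG 7, control 8 and control 9 and at 3.53 or less in the other 7 libraries. Its log2 fold change of -5.80 ± 1.41 was -0.81 without control 9. Otulinl, at 76.6, 69.3 and 138 in the same 3 libraries and at 6.37 or less elsewhere, was at -4.59 ± 0.98, and at -0.51 (p 0.63) with libraries 1 to 9 contrasted with 10 to 24. The splicing factor Eftud2 (-1.49 ± 0.34; -0.89 without control 9) went the same way, with -0.34 under that contrast. Myl9, a myosin light chain of smooth muscle, was at -4.45 ± 0.95, and at -2.68 (p 0.22) under that contrast. Its highest level, 116 CPM, was in control 9, where pericyte and smooth muscle markers were also highest, and their part in the value was not tested. The genes of 50 CPM or more with groups that did not overlap were headed by Mageh1 (46.7 ± 14.7 against 101 ± 30.3), Spg21 (40.4 ± 6.20 against 73.8 ± 14.9), the GMP synthetase Gmps (65.6 ± 31.3 against 144 ± 36.4), the ubiquitin ligase subunit Maea (71.5 ± 14.7 against 119 ± 18.5) and Uap1 above.

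Leaving out control 9 took the p of 533 of the 886 genes to 0.05 or more, against 237 to 331 for each of the other 9 libraries. Control 9 is the only control of its pool, so its loss also takes PEG 14, PEG 15 and PEG 16 out of the log2 fold change. The 533 are therefore not the influence of control 9 alone. Of the 886, 313 kept the sign and a p under 0.05 with libraries 1 to 9 contrasted with 10 to 24 in place of the pool. Without any single library and under that contrast, 108 genes kept p under 0.05. Of these, 63 were genes with a symbol and on average 20 CPM or more, 28 of them higher and 35 lower in PEG. Il13ra1, Sh3gl1, Eogt, Eipr1, Errfi1, Scarb1, St3gal6, Ccrl2, Cd36, Fry and Kank2 are among them. These fits share libraries, so the count is a description.

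In the unfolded protein and heat shock list 8 of 25 were positive, the median was -0.35 and the members with p under 0.05 were Herpud1, which serves degradation at the endoplasmic reticulum (359 ± 73.2 against 582 ± 185; -0.70 ± 0.22, p 0.0080), the chaperones Dnajb1 (-0.72 ± 0.25) and Hspa8 (-0.57 ± 0.22) and Hspa5 (-0.38 ± 0.17). These 4 were all lower, where 3.23% of all genes were lower with such a p. Without control 9 Herpud1 was at -0.37, Dnajb1 at -0.41 and Hspa8 at -0.32. The list median was -0.22 in libraries 10 to 24. Immediate early genes, which cell dissociation induces, had 14 of 28 positive, a median of 0.01 and no p under 0.05. Nuclear-encoded oxidative phosphorylation genes had 23 of 30 positive and a median of 0.18, which was 0.06 without control 9. Their members of small p differed in sign: Ndufb8 was at 141 ± 27.1 against 84.7 ± 18.6 (0.66 ± 0.24), where no PEG library reached down to a control, and Uqcrc2 at 125 ± 33.1 against 186 ± 49.4 (-0.66 ± 0.24). Ribosomal protein genes had 21 of 30 positive and a median of 0.17, which was 0.00 without control 9.

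Cholesterol and fatty acid genes had 18 of 28 positive and a median of 0.32, from 0.24 to 0.40 with single libraries left out. Beside Cd36, the fatty acid carrier Fabp4 was at 512 ± 183 CPM against 294 ± 124 (0.64 ± 0.28; 0.24 without control 9), Fasn at 1.94 ± 0.87 and Insig1, a brake on cholesterol synthesis, at -0.82 ± 0.30 (-0.30 without control 9). In the hypoxia and glycolysis list (10 of 28 positive, median -0.16) Hk1 was at -0.57 ± 0.24, and Car9 at 5.33 ± 5.55 in PEG and in control at 0.90 in library 24 with no read in the other 3. The cell cycle median was 0.36 with 16 of 25 positive. It was 0.07 in libraries 10 to 24, and -0.41 with 10 of 25 positive once the epithelial level was in the model. Mcm2, which licenses replication, was at -2.12 ± 0.67, and at -0.29 with libraries 1 to 9 contrasted with 10 to 24. The median was -0.18 for the clock (0.08 in libraries 10 to 24), 0.02 for vessel basement membrane and -0.16 for retinoic acid and prostaglandins (0.20 in libraries 10 to 24). In the last, Cyp26b1, which degrades retinoic acid, was at -1.03 ± 0.36 (-0.08 in libraries 10 to 24).

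Over the 30 lists of venule, flow, signalling, stress and metabolic genes together, 588 different genes were tested and 44 (7.48%) had a p under 0.05, beside 6.19% of all genes. Of the 44, 13 were higher and 31 lower. The lists were chosen with earlier results of these data known, so the shares in this paragraph are a description and not a test. Over all genes tested 424 were higher (2.96%) and 462 lower (3.23%). The median over the 588 was -0.002, with 291 positive. Groups did not overlap in 3 higher (Tal1, Ndufb8 and Rpl37) and 5 lower members (Il13ra1, Pdgfc, Tgfbr2, Alox12 and Ddit3). That is 0.51% and 0.85% of the 588, beside 0.538% and 0.398% of all genes. In libraries 10 to 24, 7 of the 30 medians had the other sign.

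**Figure D4:**
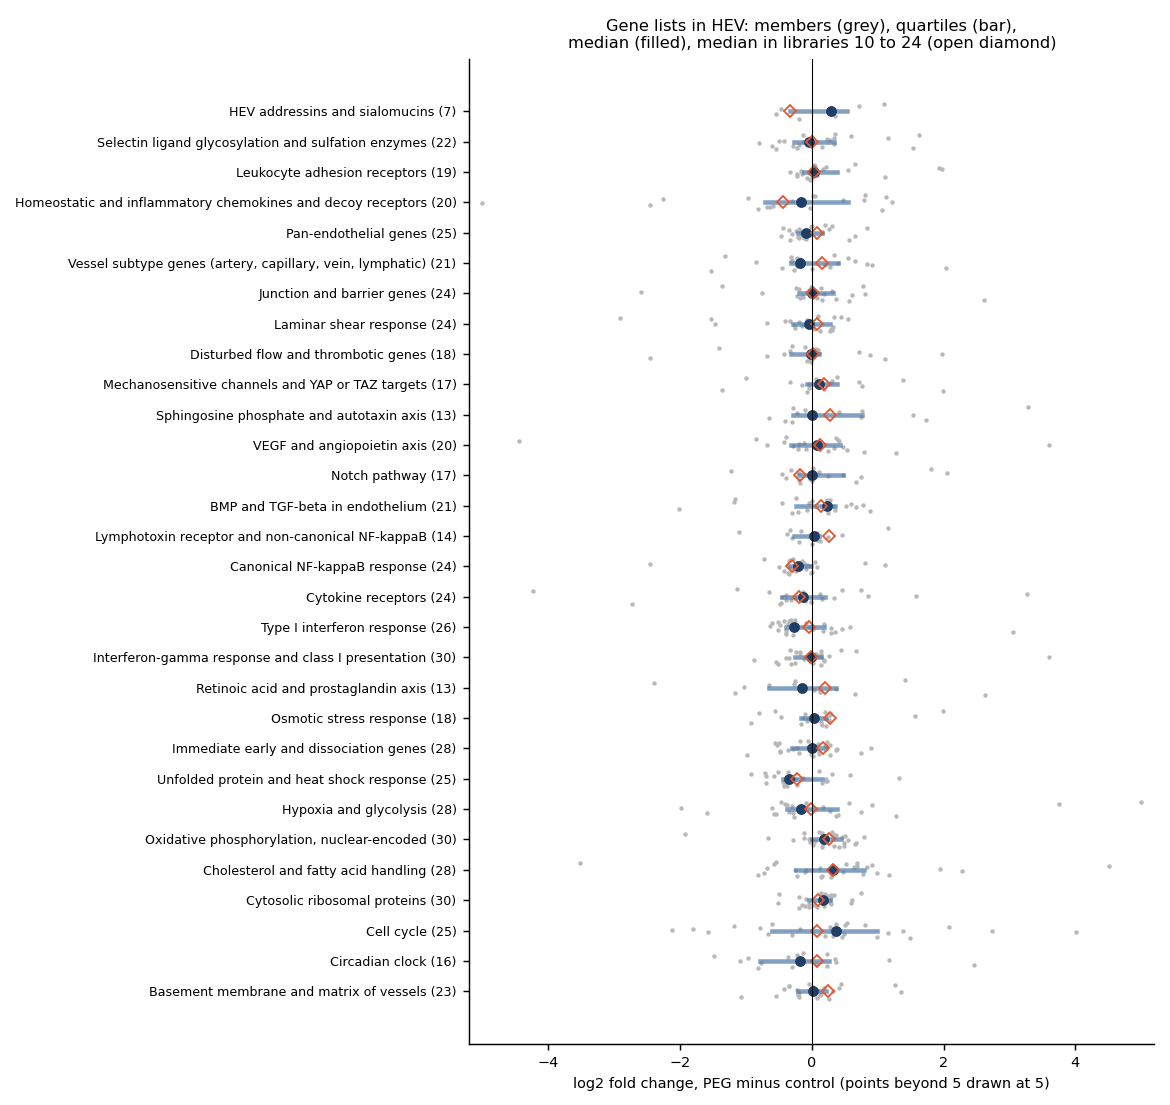
Log2 fold changes (PEG minus control) of the members tested of 30 gene lists, with the number tested in brackets. Grey points are genes, bars the quartiles, filled circles the medians over all libraries and open diamonds the medians in libraries 10 to 24. The medians lie between -0.35 (unfolded protein and heat shock) and 0.36 (cell cycle), and the bars of 2 lists, canonical NF-kappaB and oxidative phosphorylation, do not cross 0.

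Epithelial, Paneth, fibroblast and pericyte markers varied widely between libraries. For 24 intestinal epithelium genes the mean log2(CPM + 1) was 1.75, 5.34, 0.56, 6.54, 5.22 and 7.11 in PEG 7, 14, 15, 16, 22 and 23 and 0.45, 3.94, 4.32 and 4.66 in controls 8, 9, 17 and 24. All 23 members tested had a positive log2 fold change, with a median of 1.81, and 1 of them, Krt19, had a p under 0.05. Their summed level ran from 45.1 to 5943 CPM in PEG and from 17.8 to 1128 in control. Fabp2, which carries fatty acids in enterocytes, was at 2.33, 377, 0.050, 842, 638 and 1141 CPM in the PEG libraries and 3.10, 7.63, 198 and 200 in the controls (2.37 ± 1.95; 1.39 without control 9). The apolipoprotein Apoa1 was at 3.11 ± 1.76 and the lectin Lgals4 at 1.43 ± 0.77 (2.72 without control 9). The epithelial level was lowest in control 8, PEG 15 and PEG 7, and 4 of 6 PEG libraries lay above all controls. With its level in the model, Cd36 was at 0.89, Sele at 0.91, Car9 at 3.76, Eogt at 1.95 and Il13ra1 at -2.61, and of the named genes 4 changed sign (Chst2, Icam1, Fabp2 and Anxa5). Fabp2 is itself a member of the epithelial list, so its own level is part of that covariate. Among the 30 other lists the median changed sign in 9.

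Paneth and M cell genes were highest in control 24 (6.90, against 1.89 to 4.09 in the other libraries), which held Lyz1 at 4389 CPM and Defa24 at 3199, both products of Paneth cells. Their other values were at most 54.0 and 65.8. Fibroblast and reticular cell genes were highest in control 9, at 3.08 against 1.03 to 1.87, with Col3a1 at 363 CPM there and 29.2 or less elsewhere. Of 11 members tested 1 was positive, the median was -1.45, and without control 9 it was -0.11. Col6a2, also named after its values were seen, had the only p under 0.05 (-3.51). The matrix protein Mgp was at -0.35 ± 0.58 and the protease Adamdec1 at -1.78 ± 0.85 (-0.68 without control 9). The M cell list holds Anxa5, which endothelium also expresses, at 1243 ± 302 in PEG and 1375 ± 431 in control. The B cell list was at 1.40 to 2.34, T cells at 0.61 to 1.84, plasma cells at 1.31 to 2.36 and myeloid cells at 1.02 to 2.56. Myeloid genes were highest in controls 8 and 9 (2.56 and 2.54). Pericyte and smooth muscle genes ran from 0.83 in control 8 to 3.64 in control 9, red cell and platelet genes from 0.59 to 1.11, and nerve and glia genes from 0.22 to 0.87. The share of mitochondrial reads was highest in PEG 16, at 1.62%, and 1.01% to 1.25% in the others.

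**Figure D5:**
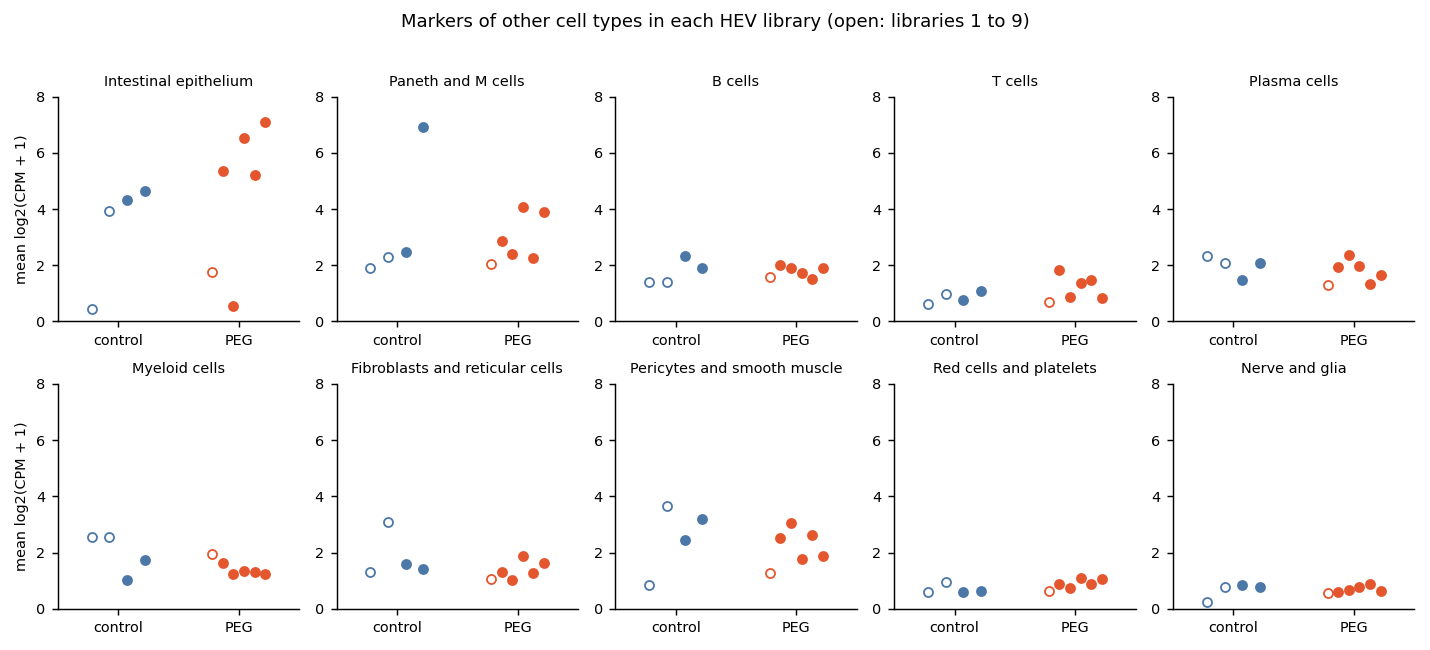
Mean log2(CPM + 1) of 10 lists of other cell types in each HEV library, control and PEG. Open circles are libraries 1 to 9, filled circles libraries 10 to 24. Epithelial genes spread from 0.45 to 7.11, control 24 stands out in Paneth and M cell genes and control 9 in fibroblast genes.

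The PEG effect in HEVs was also set against that in the 14 FRC libraries, in a test of the difference over all 24 libraries, which may in part share mice. Of 18203 genes tested, 2 (0.011%) had an adjusted p under 0.05, and 1834 an unadjusted p under 0.05. Both were sparse in HEV and more abundant in FRC. Rragd, a GTPase of amino acid signalling, ran from 0.32 over 2.67 to 4.29 CPM in HEV PEG, with 225 reads, and had no read in the 4 HEV controls. That is at least 57.8-fold higher in PEG against the 3 counts over the group that a count of 0 allows, for counting error only. In FRC it was at 27.5 ± 12.4 in PEG and 29.6 ± 8.41 in control. The fitted difference of log2 fold changes was 8.26 ± 1.22 (adjusted p 0.021, edgeR; 0.069 without HEV control 9), a value that depends on the fit where a group holds no reads. Flnc, a filamin, had 187 reads in HEV PEG and 7 in HEV control, and lay at 39.7 ± 19.6 in FRC PEG and 53.6 ± 16.4 in FRC control. Its difference was 4.57 ± 0.75 (adjusted p 0.023; 0.062 without FRC control 20). The fibroblast list was at 1.03 to 1.87 in the HEV PEG libraries and at 1.31, 3.08, 1.60 and 1.40 in the controls, and its part in these values was not tested. The named HEV genes nearest to the threshold were Spg21, at -0.94 ± 0.29 in HEV and 0.81 ± 0.21 in FRC (adjusted p of the difference 0.068), and Errfi1, at -1.86 ± 0.42 and 0.89 ± 0.42 (0.086). Il13ra1 was at -0.61 ± 0.34 in FRC, and the difference from HEV did not pass (-1.77 ± 0.51, adjusted p 0.22). In simulated data of this size none of the 2-fold or 4-fold differences between the cell types was recovered. Apart from the added changes, each simulated gene had the same mean level in both cell types and all pools. The result therefore does not cover genes that differ strongly in level between HEV and FRC, such as Rragd and Flnc.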

How the data were processed

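RNA was measured in sorted cells of single mice, 1000 cells each, per the labels' protocols. The authors aligned reads with GSNAP, per the labels' protocols, and the submitters' processing notes name the mouse build mm9. The aligner version and the annotation are not given in the sources used here. The deposited files give a count of uniquely aligned reads for each of 36528 gene models, and the RPKM values that the authors scaled by a size factor. Symbols were matched by gene ID for 31049 models (85.0%), which held 97.0% of HEV reads. Strand was not stated, so overlapping genes cannot be told apart.

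Counts were tested in R 4.3.3 with edgeR 4.0.16 (TMM scaling, filterByExpr with a count minimum of 10, quasi-likelihood test, pool as covariate, 6 residual degrees of freedom) over the 10 HEV libraries. The difference between HEV and FRC was tested over all 24 libraries. p-values were Benjamini-Hochberg adjusted over all genes tested and measure the spread between libraries. Deposited RPKM values were used for levels between genes only. DESeq2 1.42.0, limma-voom (limma 3.58.1), other scalings, filters, covariates and sets of libraries were alternatives. The fits were tested on simulated data. The limit that a count of 0 allows (3 counts) covers counting error only, since no molecular identifiers were given.

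Named were the 10 genes per direction of smallest p with a mean of at least 20 CPM, the venule genes, up to 3 genes of p under 0.05 per list, 3 markers of each of the epithelial, Paneth and fibroblast lists, and 5 genes per direction of at least 50 CPM with groups that did not overlap. The members and lists were chosen with earlier results of these data known. Of the genes so chosen, 1 is not reported here.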

Additional observations from a re-analysis of the deposited data

Results flagged for a closer look

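Of 220 groups of libraries examined for a library far from the others of its group, 19 had one. Chance marks about 1 in 20 groups. Of these values, 5 were in PEG library 7, one of the libraries 1 to 9: Adap2 at 260 CPM, Pecam1 at 1404, Chuk at 134, Hspa8 at 251 and Fabp4, the low one, at 167. PEG 23 was low in Uap1, at 82.1 CPM. Among the controls, library 9 was far from the others in Rasd2 (0.524 CPM), in Tek (531 CPM), in the level of fibroblast and reticular cell genes (3.08 on the log2(CPM + 1) scale) and in that of red cell and platelet genes (0.950). Control 8 was low in Marveld2 (2.47 CPM), Uqcrc2 (113 CPM) and nerve and glia genes (0.225). Control 17 was low in Lyve1 (15.3 CPM) and high in Ciita (1.36 CPM). Control 24 was low in Cxcl9 (92.7 CPM) and high in Car9 (0.903 CPM), Defa24 (3199 CPM) and the level of Paneth and M cell genes (6.90).

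The PEG effect differed between HEV and FRC in Rragd, by 8.26 on the log2 scale, and in Flnc, by 4.57, in edgeR's test of the difference. Rragd had no read in the HEV controls, so its value depends on the fit. With single libraries left out, the largest edgeR adjusted p was 0.069 for Rragd and 0.062 for Flnc, so neither call held throughout.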

How the results depend on the processing

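Over the 25 settings of the HEV comparison, 74 of the 98 named genes kept the sign of the log2 fold change and 24 did not. Where a value changed below, the cause was not tested. No paired analysis was possible because the replicate numbers of the labels are unique to each library, so no groups share one. Adjusted calls, 0 in the reported fit, numbered 73 higher and 68 lower without the filter, 77 and 39 with DESeq2 and 6 and 12 with all 24 libraries in 1 model. Unadjusted calls, 424 higher and 462 lower, numbered 899 and 825 without the filter, 978 and 784 in the model of all 24 libraries, and 273 and 287 with libraries 1 to 9 contrasted with 10 to 24. DESeq2 gave 919 higher. Lower calls numbered 307 where the covariate was dropped, 238 where the i5 index joined it and 282 where the lymphocyte level did. The 2 genes whose PEG effect differed between HEV and FRC became 38 without the filter, 360 with DESeq2, 0 with limma-voom, 5 with no covariate, 0 with the i5 index, 7 with libraries 1 to 9 contrasted with 10 to 24, 1 with the lymphocyte level and 0 in libraries 10 to 24. With single libraries left out they numbered 1 to 16, with 1 without HEV control 9 and 16 without HEV control 8.

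Signs of named genes changed as follows, as log2 fold changes. With the i5 index added: Glycam1 -0.10, Pecam1 0.013, Ltbr 0.53, Icam1 0.19, Vcam1 0.25, Cav1 -0.062, Tek 0.23, Cxcl9 0.38 and Mgp 0.31. With libraries 1 to 9 contrasted with 10 to 24: Adap2 0.97, Pecam1 0.22, Chst2 -0.30, Ltbr 0.22, Icam1 0.14, Vcam1 0.072, Cav1 -0.17, Piezo1 0.033 and Cxcl9 0.13. In libraries 10 to 24: Glycam1 -0.11, Pecam1 0.26, Chst4 -2.06, Ltbr 0.50, Icam1 0.0023, Cdh5 -0.019, Cav1 -0.0735, Piezo1 0.18, Tek 0.24, Kdr 0.42, Cxcl9 0.11 and Col3a1 1.12. The libraries of the i5 index that all PEG libraries carry hold controls 8 and 24 only, with no control in the pool of PEG 14, PEG 15 and PEG 16. In them: Glycam1 -0.18, Pecam1 0.19, Chst4 -0.15, Ltbr 0.64, Icam1 0.21, Vcam1 0.17, Cav1 -0.11, Tek 0.38, Cxcl9 0.36 and Mgp 0.039. In the model of all 24 libraries: Fut7 0.13, Icam1 0.0020, Selp 0.25 and Ackr1 0.33. With the epithelial level: Chst2 -0.11, Icam1 0.072, Fabp2 (itself part of that level) -0.47 and Anxa5 0.043. With the lymphocyte level: Ltbr 0.17, Icam1 0.054, Vcam1 0.017, Kdr 0.12 and Cxcl9 0.098. Without the shallow PEG library 16: Chst2 -0.11 and Icam1 0.018. With limma-voom: Chst4 -0.33, Ltbr 0.26, Cav1 -0.042, Tek 0.032 and Cxcl9 0.022. Ltbr was at 0.023 with RLE scaling, 0.022 with the submitters' size factors, 0.019 with a count minimum of 50, 0.023 with DESeq2 and 0.0041 with no covariate. Cxcl9 was at 0.0055 with RLE scaling, 0.0045 with the submitters' size factors, 0.0055 with DESeq2 and 0.013 with no covariate.

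With single libraries left out, the ranges that included both signs were -0.0032 to 0.62 for Glycam1, -0.49 to 0.27 for Pecam1, -0.52 to 3.64 for Chst4, -0.11 to 0.25 for Chst2, -0.16 to 0.49 for Ltbr, -0.14 to 0.095 for Icam1, -0.24 to 0.16 for Vcam1, -0.51 to 0.0084 for Selp and -0.13 to 0.10 for Cav1. They were -0.22 to 0.063 for Piezo1, -0.40 to 0.35 for Tek, -0.33 to 0.12 for Kdr, -0.23 to 0.14 for Cxcl9, -0.15 to 0.49 for Nfat5, -0.24 to 0.0012 for Anxa5, -6.35 to 4.16 for Lyz1, -6.17 to 5.38 for Defa24, -3.22 to 0.058 for Col3a1 and -0.82 to 0.30 for Mgp.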
